A study of Homo sapiens with 21 samples.

Results

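Transcripts of 8 genes named as inhibitors of cyclin-dependent kinases (CDKs) were followed through proliferating, irradiated and CDK-depleted human fibroblasts. The genes were chosen by symbol, and all 8 were found among the 16383 genes listed: CDKN1A, CDKN1B and CDKN1C of the CIP family, CDKN2A, CDKN2B, CDKN2C and CDKN2D of the INK4 family, and CDKN3. CDKN3 shares the naming scheme but belongs to neither family, because it encodes a phosphatase. A gene was tested if 3 or more libraries gave it a value of 10 or higher, which 7 of the 8 inhibitors and 11579 genes in all did. CDKN1C did not reach it and is given by its values alone.

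The cells were IMR90, lung fibroblasts that the labels give as wild type. RNA was captured by its poly(A) tail in 21 libraries, 3 for each of 7 groups. Proliferating cells were neither irradiated nor transfected. The other 18 libraries all came from cells made senescent by irradiation, harvested on day 10 after it, and given 5 nM siRNA on day 4 and again on day 7. In 2 of these groups the siRNA was a non-targeting one, named NT3 or NT4. In the other 4 it targeted the cyclin gene CCND1, the kinase gene CDK4, the kinase gene CDK6, or both kinase genes at once, which is called the dual knockdown here. Whether 5 nM was the total or the dose of each siRNA in the dual knockdown is not given in the sources used here. The 6 NT3 and NT4 libraries are called controls. Irradiation and transfection cannot be told apart in any comparison with proliferating cells. Each target had 1 named siRNA, so what a reagent did to other transcripts cannot be told apart from what the loss of its target did. The labels do not say that the libraries of a group came from separate cultures, so p-values measure the spread between libraries, which may be technical.

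CDKs drive the cell cycle when bound to cyclins, and their inhibitors set when they may do so. CIP proteins, p21 from CDKN1A, p27 from CDKN1B and p57 from CDKN1C, bind complexes of cyclin and CDK and block CDK2 above all, while they also take part in assembling cyclin D with CDK4 or CDK6. INK4 proteins, p16 from CDKN2A, p15 from CDKN2B, p18 from CDKN2C and p19 from CDKN2D, bind CDK4 and CDK6 and keep cyclin D away from them. In senescent fibroblasts p21 is known as the inhibitor that starts the arrest after damage and p16 as the inhibitor that maintains it. CDKN2A also encodes ARF, from another first exon and reading frame, which binds MDM2. CDKN3 encodes a phosphatase that removes the activating phosphate from CDK2, and its transcript is known to be highest in dividing cells.

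Between 12892442 and 21822152 reads per library fell in the listed genes. The knockdowns left 11.8% of the control mean for CCND1, 8.67% for CDK4 and 16.4% for CDK6 in the cells treated for that gene, and the dual knockdown left 9.41% for CDK4 and 20.6% for CDK6. Values given below as without a target are those after its knockdown, with this much transcript left. Protein was not measured. All 9 fibroblast markers were present, with a summed value of 451735 to 867109 per library, and epithelial markers summed to 14.5 to 52.9, endothelial markers to 6.38 to 31.6 and smooth muscle markers to 39.7 to 77.7. Immune markers summed to 654 to 1604, of which CD68 made up 650 to 1588 and the leukocyte marker PTPRC 0 to 8.90. These sums moved with the groups. Fibroblast markers summed to 604710 to 620896 in proliferating cells, 451735 to 562545 in the controls and 681903 to 867109 in the dual knockdown. By the test described below, 7 of 9 were lower in the controls than in proliferating cells, beside 36.1% of all tested genes. In the dual knockdown 7 of 9 were higher than in the controls, beside 22.5% of all tested genes. Immune markers summed to 654 to 688 in proliferating cells and 888 to 1413 in the controls, and both tested ones were higher there, beside 32.6% of all tested genes. Their part in the values of the inhibitors was not tested. One library stood apart: the deviations of NT3 library 3 from its group means had an SD of 0.344 on the log2 scale, against at most 0.256 in the other 20 libraries. In bulk RNA of this kind, fewer cells with a transcript and less transcript per cell cannot be told apart.

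Values are normalised read counts, and differences are log2 fold changes of the value plus 1, each with the standard error (SE) and adjusted p of limma over all tested genes. A gene was called where that p was under 0.05. In the senescent controls, CDKN1A and CDKN2B were higher than in proliferating cells and CDKN1B, CDKN2C, CDKN2D and CDKN3 were lower, while CDKN2A did not pass. That makes 6 of 7 tested inhibitors, where 68.6% of all tested genes were called, 32.6% as higher and 36.1% as lower. NT4 and NT3, the same treatment with different control siRNAs, differed in 0 of 7 by limma, where 27.8% of all genes were called. None of the 7 was at an unadjusted p under 0.05 in that comparison by limma, edgeR or DESeq2. Against the controls, CCND1 knockdown lowered 3 inhibitors, all of the INK4 family, with 31.0% of all genes called and 14.4% called as lower. CDK4 knockdown raised CDKN3 and lowered CDKN1A, 2 of 7 with 16.0% of all genes called, 8.46% as higher and 7.55% as lower. That count was 4 by DESeq2 and 1 with NT4 alone as the control. CDK6 knockdown lowered 5, the most of the single knockdowns, with 41.9% of all genes called and 20.8% called as lower. The dual knockdown lowered 5 and raised CDKN1B, with 44.0% of all genes called, 22.5% as higher and 21.5% as lower. These 4 knockdown comparisons share the same 6 control libraries.

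**Figure D1:**
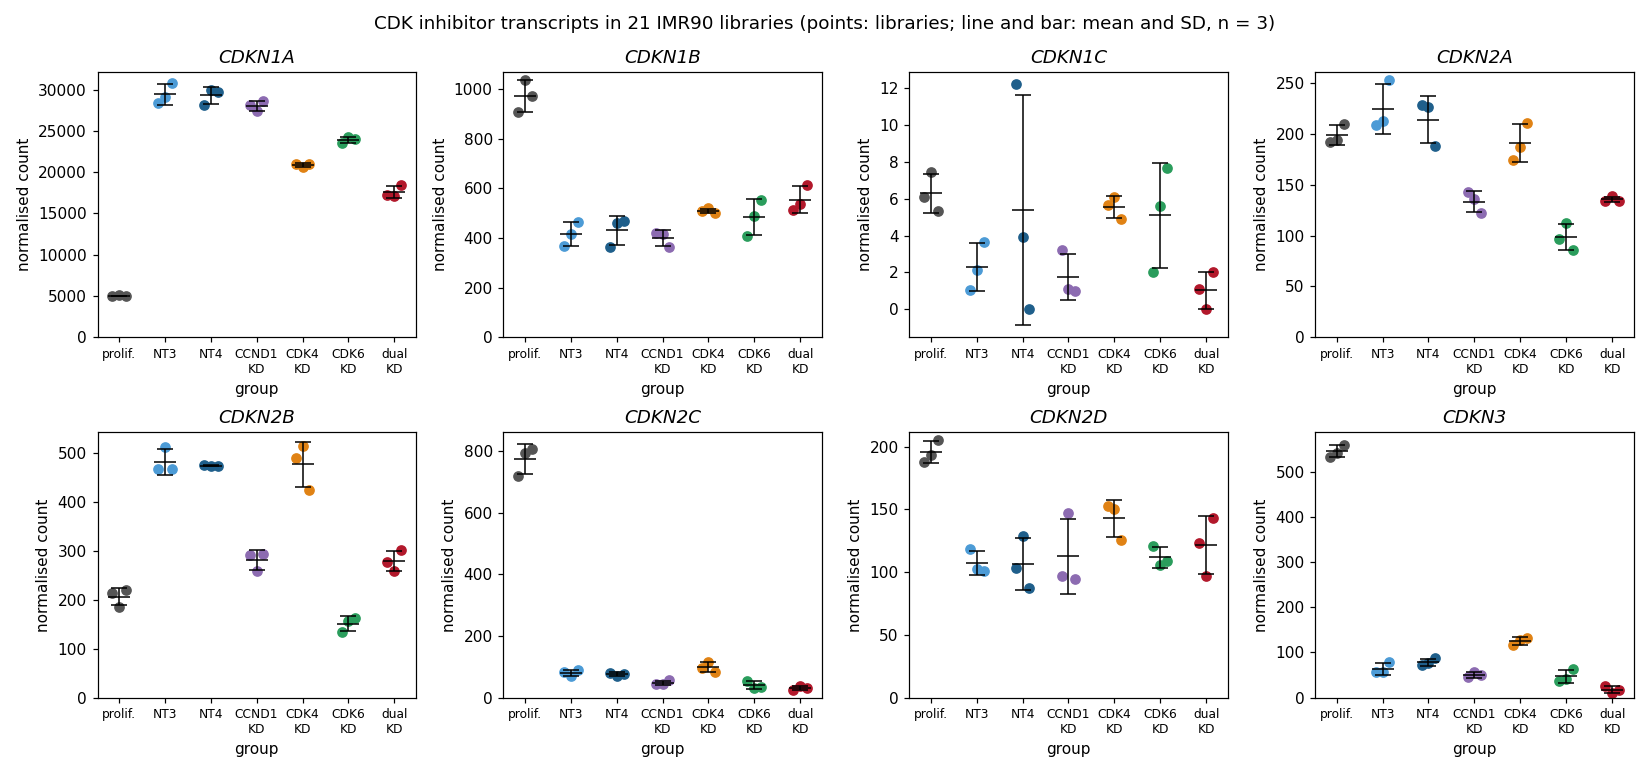
Normalised read count (vertical axis, linear, a scale of its own in each panel) of each inhibitor in the 7 groups, with a point per library, and the mean and SD over 3 libraries. CDKN1A rises from about 5010 in proliferating cells to over 28151 in every control library, CDKN2C and CDKN3 fall, and CDK6 knockdown gives the lowest CDKN2A and CDKN2B.

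Per kilobase of the MANE transcript (the reference isoform of each gene), which allows genes to be compared, CDKN1A led in every group. In proliferating cells its mean level was 2366 per kilobase, followed by 778 for CDKN2C, 650 for CDKN3, 403 for CDKN1B, 203 for CDKN2A, 137 for CDKN2D, 53.6 for CDKN2B and 3.55 for CDKN1C. In the controls the level was 13864 for CDKN1A, 224 for CDKN2A, 176 for CDKN1B, 124 for CDKN2B, 84.8 for CDKN3, 78.3 for CDKN2C, 75.0 for CDKN2D and 2.16 for CDKN1C. CDKN2C thus went from the second place to the sixth, and CDKN2A from the fifth to the second with a nearly level value of its own. The control place of CDKN2C rests on close means, with SDs of 14.8 for CDKN3, 7.86 for CDKN2C and 10.1 for CDKN2D. In the dual knockdown the levels were 8314 for CDKN1A, 230 for CDKN1B, 139 for CDKN2A, 85.1 for CDKN2D, 72.6 for CDKN2B, 31.3 for CDKN2C, 20.7 for CDKN3 and 0.58 for CDKN1C. CDKN1B stood second by mean in each of the 4 knockdown groups. After CDK4 knockdown that was 211 (SD 3.71) against 195 (SD 19.1) for CDKN2A. These levels assume that reads fell on the MANE isoform.

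CDKN1A, which encodes p21, lies at chr6:36676460-36687337 on the plus strand (GRCh38, GENCODE annotation). Its value was 5007, 5060 and 4963 in proliferating cells, 28356, 29070 and 30843 with NT3, and 28151, 29924 and 29757 with NT4. Every control library was over 5 times the highest proliferating library. The difference was a log2 fold change of 2.55 (SE 0.04, limma adjusted p = 3.93e-21), or 5.85-fold.

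Among the knockdowns, CDKN1A was 28132, 27345 and 28575 without CCND1, which overlaps the controls. It was 21009, 20633 and 20978 after CDK4 knockdown and 23532, 24235 and 24042 after CDK6 knockdown. The dual knockdown gave 17255, 17118 and 18429, the lowest of the irradiated groups and still above every proliferating library. Ordered by mean, the groups ran NT3, NT4, CCND1, CDK6, CDK4, dual and proliferating, and from CCND1 knockdown downwards no group overlapped the next. Against the controls the log2 fold change was -0.49 (SE 0.04, limma adjusted p = 6.32e-08) for CDK4, -0.29 (SE 0.04, adjusted p = 1.33e-05) for CDK6 and -0.74 (SE 0.04, adjusted p = 1.51e-11) for both. For CCND1 it was -0.07 (95% interval -0.16 to 0.02, limma adjusted p = 0.257), which became a call under quantile normalisation at -0.14 (adjusted p = 0.0329). The long non-coding gene DINOL overlaps CDKN1A on the other strand, and whether the authors counted by strand is not given in the sources used here.

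CDKN1B, which encodes p27, lies at chr12:12685498-12722369 on the plus strand. It was 908, 1035 and 970 in proliferating cells, 367, 418 and 462 with NT3, and 365, 459 and 467 with NT4. The controls were thus all below the lowest proliferating library, with a log2 fold change of -1.20 (SE 0.10, limma adjusted p = 3.84e-10). CCND1 knockdown gave 421, 416 and 364, which overlaps the controls. After CDK4 knockdown the values were 507, 520 and 503, all above the highest control, and the log2 fold change of 0.27 (SE 0.10) had a limma adjusted p of 0.0596. DESeq2 called it (adjusted p = 0.0440), as did limma without NT3 library 3 (adjusted p = 0.0127) or without NT4 library 3 (adjusted p = 0.0478). CDK6 knockdown gave 409, 487 and 553, a range that overlaps the controls, and a log2 fold change of 0.19 (SE 0.10, limma adjusted p = 0.131). That one was called without NT3 library 3 (adjusted p = 0.0429) or without CDK6 knockdown library 1 (0.30, adjusted p = 0.0296).

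The dual knockdown gave CDKN1B values of 513, 536 and 615, all above the controls and below proliferating cells. It was the one irradiated group in which CDKN1B passed the test against the controls, at 0.39 (SE 0.10, limma adjusted p = 0.00254). Whether it exceeded the single knockdowns is another comparison, and there it did not pass: the log2 fold change was 0.12 (95% interval -0.12 to 0.35) against CDK4 knockdown and 0.21 (95% interval -0.03 to 0.44) against CDK6 knockdown. GPR19 overlaps the first part of the CDKN1B span on the other strand.

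CDKN1C, which encodes p57 and lies at chr11:2883213-2885775 on the minus strand, was close to absent. Its group means were 6.29 in proliferating cells, 2.27 with NT3, 5.38 with NT4, 1.75 without CCND1, 5.56 without CDK4, 5.10 without CDK6 and 1.04 in the dual knockdown. These stand for 20, 7, 15, 5, 17, 16 and 3 reads in all, and each of these groups overlapped the next in order of their means. NT4 library 1 held the highest value, 12.2, and no difference between groups can be read at this depth.

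CDKN2A and CDKN2B lie side by side on the minus strand of chromosome 9, at chr9:21967752-21995301 and chr9:22002903-22009305, with 7601 bases between them. The antisense gene CDKN2B-AS1 covers all of CDKN2B and 1163 bases of CDKN2A on the other strand, and a further long non-coding gene spans both. Because the strand setting of the counting is not given, reads of the antisense genes cannot be told apart from those of these genes. The CDKN2A row does not separate the p16 transcript from the ARF transcript. The 250 bases before the MANE starts of the neighbours, from RefSeq (GRCh38.p14), are shown because these genes had the largest falls among the inhibitors after CDK6 knockdown. They lie at chr9:21974858-21975107 and chr9:22009306-22009555 on the minus strand, and capitals mark GC boxes (GGGCGG on either strand).
CDKN2A: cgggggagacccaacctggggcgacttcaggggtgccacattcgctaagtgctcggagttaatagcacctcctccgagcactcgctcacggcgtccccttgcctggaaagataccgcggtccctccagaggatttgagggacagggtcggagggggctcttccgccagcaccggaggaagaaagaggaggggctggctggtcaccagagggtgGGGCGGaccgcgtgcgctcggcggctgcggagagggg
CDKN2B: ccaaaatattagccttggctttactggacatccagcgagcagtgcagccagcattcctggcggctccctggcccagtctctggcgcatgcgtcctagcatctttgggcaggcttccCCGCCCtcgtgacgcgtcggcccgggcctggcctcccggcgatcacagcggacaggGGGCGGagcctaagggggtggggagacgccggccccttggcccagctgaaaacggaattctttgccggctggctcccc
The CDKN2A window holds 1 GC box, at -37 to -32 from the start, and the CDKN2B window holds 1 at -134 to -129 on the other strand and 1 at -78 to -73. Of 35116 RefSeq windows of this length, 42.6% hold a GC box. Neither window holds the cell cycle element CHR (TTTGAA), the E2F-type element TTTNNCGC, a CCAAT box (CCAAT) or the AP-1 element TGANTCA on either strand, which says only that these letters are not in these windows.

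CDKN2A differed little between proliferating and senescent control cells. Its values were 192, 194 and 210 in proliferating cells, 209, 212 and 252 with NT3, and 228, 226 and 188 with NT4, and the ranges overlapped. The log2 fold change was 0.14 (SE 0.10, 95% interval -0.08 to 0.35, limma adjusted p = 0.241). Scaling mattered here: CDKN2A was called as higher in the senescent controls with the libraries centred on their medians (0.25, adjusted p = 0.0350) or quantile normalised (0.26, adjusted p = 0.0336), which makes 3 higher and 4 lower of the 7 inhibitors in place of 2 and 4. The median over all genes shifted by 0.11 under median centring in that comparison.

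In the knockdowns CDKN2A fell where CCND1 or CDK6 was depleted. CCND1 knockdown gave 143, 135 and 122, CDK6 knockdown gave 96.7, 111.8 and 86.2, and the dual knockdown gave 134, 139 and 134. All 9 of these libraries lay below all controls and all proliferating libraries. The log2 fold changes against the controls were -0.71 (SE 0.10, limma adjusted p = 1.95e-05) for CCND1, -1.15 (SE 0.10, adjusted p = 1.33e-08) for CDK6 and -0.68 (SE 0.10, adjusted p = 1.24e-05) for both kinases. CDK4 knockdown gave 174, 187 and 211, which overlaps the controls, at -0.20 (95% interval -0.41 to 0.01, limma adjusted p = 0.209).

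CDKN2B, which encodes p15, was higher in senescent controls than in proliferating cells. Among the knockdowns it was highest without CDK4 and lowest without CDK6, as CDKN2A was. It was 214, 186 and 220 in proliferating cells, 467, 513 and 467 with NT3, and 475 in each NT4 library. The log2 fold change of 1.21 (SE 0.08, limma adjusted p = 2.84e-11) is a 2.32-fold difference, with no overlap. CCND1 knockdown gave 291, 258 and 294 and the dual knockdown gave 278, 260 and 301, both below all controls and above all proliferating libraries. CDK6 knockdown gave 134, 157 and 163, below even the proliferating libraries. CDK4 knockdown gave 492, 516 and 426, a range that includes the NT4 values.

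Against the controls, CDKN2B changed by -0.77 (SE 0.08, limma adjusted p = 6.96e-07) without CCND1, -1.66 (SE 0.08, adjusted p = 4.07e-12) without CDK6 and -0.77 (SE 0.08, adjusted p = 1.68e-07) without both kinases. CDK6 knockdown thus left 31.6% of the control level. For CDK4 knockdown the log2 fold change was -0.01 (95% interval -0.18 to 0.17, limma adjusted p = 0.969). CCND1 and dual knockdown could not be told apart at either gene of the locus: the difference of CCND1 from dual knockdown was -0.03 (95% interval -0.27 to 0.22) for CDKN2A and 0.01 (95% interval -0.19 to 0.21) for CDKN2B.

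CDKN2C, which encodes p18 and lies at chr1:50960745-50974634 on the plus strand, had the largest fall of the INK4 genes from proliferating to control cells. It was 719, 795 and 808 in proliferating cells, 83.0, 68.8 and 88.6 with NT3, and 80.1, 69.1 and 77.9 with NT4. The controls held 10.2% of the proliferating level, a log2 fold change of -3.30 (SE 0.16, limma adjusted p = 1.00e-13). Knockdown of CCND1 gave 42.5, 44.8 and 55.9, knockdown of CDK6 gave 55.0, 31.7 and 34.5, and the dual knockdown gave 25.4, 37.1 and 31.0, all below every control. The log2 fold changes against the controls were -0.70 (SE 0.16, limma adjusted p = 0.00260), -0.97 (SE 0.16, adjusted p = 6.48e-05) and -1.30 (SE 0.16, adjusted p = 1.30e-06) in that order. CDK4 knockdown gave 94.7, 116 and 84.4, which overlaps the controls at 0.32 (95% interval -0.02 to 0.66, limma adjusted p = 0.198). The dual knockdown rests on 88 reads in all. A long non-coding gene overlaps 670 bases of CDKN2C on the other strand, and the strand setting of the counting is not given.

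CDKN2D, which encodes p19 and lies at chr19:10566460-10569059 on the minus strand, varied least, with its 7 group means spanning 0.89 on the log2 scale. It was 188, 194 and 206 in proliferating cells, 118, 102.9 and 100.7 with NT3, and 103.5, 128 and 87.5 with NT4. The controls lay below the proliferating libraries at -0.88 (SE 0.15, limma adjusted p = 1.95e-05). No knockdown passed the test against the controls for this gene. The values were 96.8, 147 and 94.2 without CCND1, 121, 105.3 and 109.2 without CDK6 and 124, 97.2 and 143 in the dual knockdown, all overlapping the controls. After CDK4 knockdown they were 152, 150 and 126, which also overlaps the controls, at 0.42 (SE 0.15, limma adjusted p = 0.0571). In 16 of 21 alternatives that value stayed uncalled. That value was called under quantile normalisation (adjusted p = 0.0454), by edgeR (adjusted p = 0.0497) and DESeq2 (adjusted p = 0.0339), and by limma without NT3 library 1 (adjusted p = 0.0498) or NT4 library 2 (adjusted p = 0.0294).

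CDKN3, the CDK2 phosphatase at chr14:54396849-54420218 on the plus strand, had the widest range, with group means spanning 4.99 on the log2 scale. It was 535, 544 and 562 in proliferating cells, 57.1, 56.0 and 78.9 with NT3, and 72.3, 75.9 and 87.5 with NT4. The controls held 13.0% of the proliferating level, a log2 fold change of -2.94 (SE 0.21, limma adjusted p = 5.09e-11). The single knockdowns of CDK4 and CDK6 then moved it in opposite directions. CDK4 knockdown gave 116, 128 and 132, all above the controls, at 0.83 (SE 0.21, limma adjusted p = 0.00945). Against NT4 alone this was 0.67 and not called (adjusted p = 0.0805).

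CDK6 knockdown gave CDKN3 values of 36.6, 41.9 and 64.2, the last of which lies inside the control range, at -0.60 (SE 0.21, limma adjusted p = 0.0277). That call was lost with NT3 alone as the control (-0.44, adjusted p = 0.144), under quantile normalisation (-0.50, adjusted p = 0.0668), and without CDK6 knockdown library 1 (-0.43, adjusted p = 0.172), CDK6 knockdown library 2 (-0.53, adjusted p = 0.105) or NT4 library 3 (-0.56, adjusted p = 0.0537). CCND1 knockdown gave 44.7, 56.5 and 50.1, at -0.48 (SE 0.21, limma adjusted p = 0.0898), and was called by DESeq2 (adjusted p = 0.0202). The dual knockdown gave 26.5, 9.83 and 16.0, below every other library. This is 24.1% of the control level, at -2.06 (SE 0.21, limma adjusted p = 7.76e-08). Since the dual value rests on 49 reads, the size depends on the pseudocount, and with 10 in place of 1 it was -1.60.

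**Figure D2:**
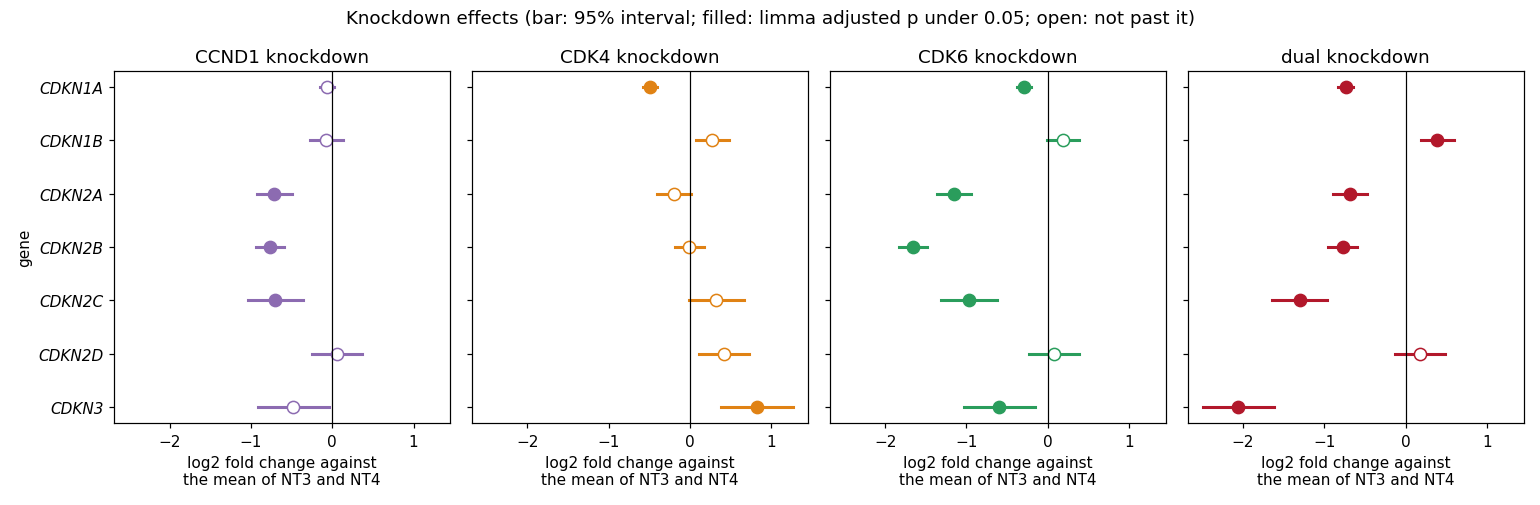
Log2 fold change of the 7 tested inhibitors (horizontal axis) in each knockdown against the 6 control libraries, with 95% intervals; filled points passed an adjusted p of 0.05 and open points did not. CDKN2A and CDKN2B lie left of zero for CCND1, CDK6 and dual knockdown but not past the threshold for CDK4 knockdown, where CDKN3 lies at 0.83.

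The promoters of CDKN2C and CDKN3 are shown because these transcripts had the largest falls among the inhibitors from proliferating to control cells. These are the 250 bases before the MANE starts from RefSeq (GRCh38.p14), at chr1:50969995-50970244 and chr14:54396757-54397006 on the plus strand. Capitals mark matches to any of the 5 motifs named above.
CDKN2C: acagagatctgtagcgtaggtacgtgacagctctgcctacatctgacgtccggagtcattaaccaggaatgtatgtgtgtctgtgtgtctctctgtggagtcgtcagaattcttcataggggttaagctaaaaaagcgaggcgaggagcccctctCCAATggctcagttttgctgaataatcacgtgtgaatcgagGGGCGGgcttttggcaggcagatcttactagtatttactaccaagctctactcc
CDKN3: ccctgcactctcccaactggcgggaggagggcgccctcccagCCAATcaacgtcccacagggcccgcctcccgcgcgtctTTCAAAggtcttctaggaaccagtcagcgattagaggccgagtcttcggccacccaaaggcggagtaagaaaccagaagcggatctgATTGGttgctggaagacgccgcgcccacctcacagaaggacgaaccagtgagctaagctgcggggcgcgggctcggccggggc
The CDKN3 window holds the CHR letters (TTTGAA) on the other strand at -170 to -165, with a CCAAT box upstream at -208 to -204 and another, on the other strand, downstream at -83 to -79. CHR letters occur in 13.3% of all windows and a CCAAT box in 32.0%. The CDKN2C window holds a CCAAT box at -95 to -91 and a GC box at -54 to -49, but no CHR or E2F-type letters. No matches overlap in these windows. Among the 10 starts listed for 7 of the inhibitors, the E2F-type element occurred once, at -216 to -209 of CDKN2D as TTTCACGC, and it occurs in 5.92% of all windows. The AP-1 element, present in 6.57% of all windows, occurred in none of the 10. A match is a run of letters and not a measured binding site.

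The design allows the dual knockdown to be set against the sum of the separate CDK4 and CDK6 effects on the log2 scale. A departure from that sum was called for 3 of 7 inhibitors, where 6.35% of all genes were called, 2.63% as higher and 3.71% as lower. These 3 calls held in each fit that left out 1 library, but the all-gene count of 735 did not, as it was 1438 without NT3 library 3, 1191 without NT3 library 2 and 442 to 482 without CDK4 knockdown library 1 or 2, CDK6 knockdown library 3, or dual knockdown library 1 or 3. CDKN2A and CDKN2B lay above it and CDKN3 below it. For CDKN2B the single effects of -0.01 and -1.66 sum to -1.67, whereas the dual knockdown gave -0.77, a departure of 0.89 (SE 0.13, limma adjusted p = 0.000112). The CDKN2A effects of -0.20 and -1.15 sum to -1.35, against -0.68 in the dual knockdown, a departure of 0.67 (SE 0.16, adjusted p = 0.0121). For CDKN3 the sum of 0.83 and -0.60 is 0.23, and the dual knockdown gave -2.06, a departure of -2.28 (SE 0.32, limma adjusted p = 9.48e-05). With a pseudocount of 10 that departure was -1.84.

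CDKN1A came closest to the sum: -0.49 and -0.29 add to -0.78, the dual value was -0.74, and the departure was 0.05 (95% interval -0.09 to 0.18, limma adjusted p = 0.727). The other departures did not pass the test. They were -0.07 (95% interval -0.38 to 0.24) for CDKN1B, -0.66 (95% interval -1.18 to -0.14, limma adjusted p = 0.126) for CDKN2C and -0.32 (95% interval -0.79 to 0.15) for CDKN2D.

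**Figure D3:**
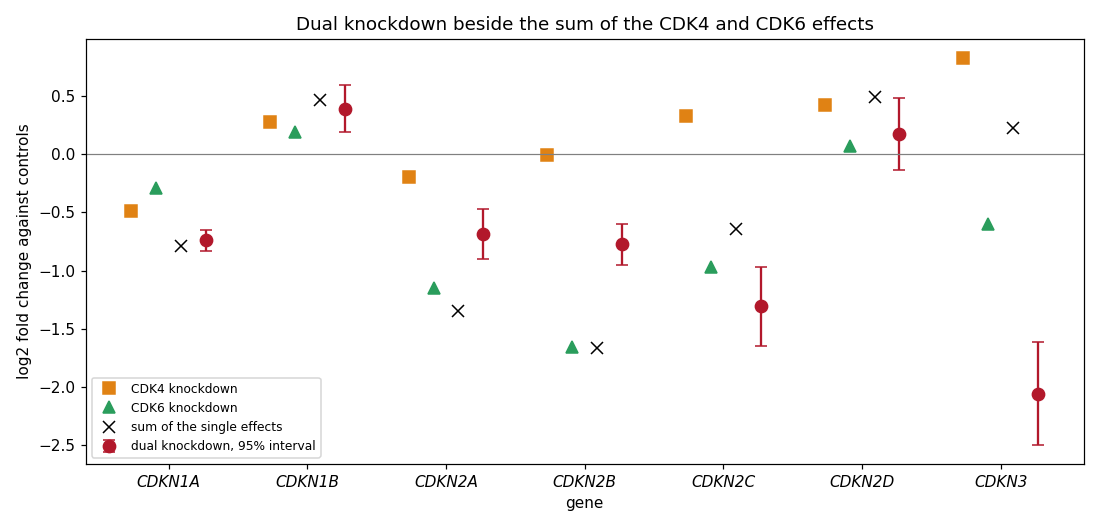
Log2 fold change against the controls (vertical axis) of each tested inhibitor after CDK4 knockdown (squares), CDK6 knockdown (triangles) and dual knockdown (circles, with 95% intervals), beside the sum of the single effects (crosses). The cross lies inside the dual interval for CDKN1A and CDKN1B and below it for CDKN2A and CDKN2B. It lies just above the interval for CDKN2D, above it for CDKN2C and far above it for CDKN3. The interval is that of the dual effect alone and leaves out the error of the sum, so it is not the test of the departure. The departures of CDKN2C and CDKN2D did not pass that test.

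Direct comparisons between knockdowns place these departures. The dual knockdown differed from CDK6 knockdown in 4 of 7 inhibitors, with 13.0% of all genes called, 6.05% as higher and 6.94% as lower. CDKN2A was higher in the dual knockdown by 0.47 (SE 0.12, limma adjusted p = 0.0102) and CDKN2B by 0.89 (SE 0.10, adjusted p = 1.67e-06), and neither overlapped between the groups. CDKN1A was lower at -0.44 (SE 0.05, limma adjusted p = 2.31e-06) and CDKN3 at -1.46 (SE 0.24, adjusted p = 0.000254). Without CDK6 knockdown library 3 the CDKN2A difference was 0.38 and not called (adjusted p = 0.0727). The CDK6 transcript itself was also higher in the dual knockdown, 968 against 773 on average, at 0.33 (SE 0.09, limma adjusted p = 0.0223), and its part in these differences was not tested.

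Against CDK4 knockdown the dual knockdown was lower in 5 of 7, with 30.6% of all genes called and 14.8% called as lower. The log2 fold changes were -0.25 for CDKN1A, -0.49 for CDKN2A, -0.77 for CDKN2B, -1.63 for CDKN2C and -2.88 for CDKN3. The value for CDKN1A grew to -0.43 under quantile normalisation, and that for CDKN3 was -2.35 with a pseudocount of 10. The 2 single kinase knockdowns differed from each other in 5 of 7, with 34.8% of all genes called, 17.5% as higher and 17.3% as lower. CDK6 knockdown was lower than CDK4 knockdown at -0.95 (SE 0.12, limma adjusted p = 1.64e-06) for CDKN2A, -1.65 (SE 0.10, adjusted p = 3.73e-11) for CDKN2B, -1.29 (SE 0.19, adjusted p = 1.40e-05) for CDKN2C and -1.42 (SE 0.24, adjusted p = 9.18e-05) for CDKN3. CDKN1A was higher at 0.20 (SE 0.05, limma adjusted p = 0.00369), a call lost under quantile normalisation (0.05, adjusted p = 0.499).

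CCND1 knockdown, which lowers the cyclin transcript, differed from the dual knockdown, which lowers the kinase transcripts, in 4 of 7 inhibitors. Of all genes, 20.3% were called, 11.2% as higher and 9.12% as lower. CCND1 knockdown left more CDKN1A, at 0.67 (SE 0.05, limma adjusted p = 4.01e-09), and more CDKN3, at 1.58 (SE 0.24, adjusted p = 6.53e-05), and less CDKN1B, at -0.47 (SE 0.11, adjusted p = 0.00466). CDKN2C was higher by 0.61 (SE 0.19, limma adjusted p = 0.0259). That last call was the least steady: it was lost in the fit of these groups alone (adjusted p = 0.0738), under quantile normalisation (0.37, adjusted p = 0.199), with a replicate block (adjusted p = 0.0636), and without CCND1 knockdown library 3 (adjusted p = 0.127), dual knockdown library 1 (adjusted p = 0.134) or dual knockdown library 3 (adjusted p = 0.0617).

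Compared with proliferating cells, the dual knockdown differed in all 7 tested inhibitors, with 65.6% of all genes called, 32.7% as higher and 32.9% as lower. CDKN1A at 1.81 and CDKN2B at 0.44 remained above proliferating cells. CDKN2C at -4.60 and CDKN3 at -4.99 were furthest below, holding 4.11% and 3.14% of the proliferating level. CDKN1B was at -0.81, CDKN2D at -0.70 and CDKN2A at -0.55. Under quantile normalisation the values for CDKN2D and CDKN2A were nearer to zero, at -0.46 and -0.33, and that for CDKN3 was -4.39 with a pseudocount of 10.

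Genes for cyclins, CDKs and a subunit of a CDK complex moved as well. Not all of these 15 genes encode proteins that the inhibitors bind. In the senescent controls 5 were higher and 8 lower than in proliferating cells. The median log2 fold change was -0.44 against -0.03 over all tested genes, of which 68.6% were called. CCND2, a D-type cyclin, rose by 5.01 and CCND1 by 1.23, while CDK4 fell by 0.81 and CDK6 rose by 0.39. The mitotic cyclins and their kinase fell furthest, with log2 fold changes of -3.05 for CCNA2, -2.81 for CDK1 and -2.74 for CCNB2. In the dual knockdown 3 were higher and 10 lower than the controls, with a median of -1.23 against 0.00 over all tested genes, of which 44.0% were called. The 10 lower genes include CDK4 and CDK6, the targets of that knockdown, whose falls were set by the design. Both also enter the median of -1.23, so neither the count nor the median describes untargeted genes alone. CDK2, the main kinase bound by CIP proteins, changed by -1.04 after CDK4 knockdown, -1.10 after CDK6 knockdown and -1.89 after both, each a called fall. CCND1 was at 0.31, 0.53 and 0.53 in the same order. Its controls differed, with 25615 to 36692 for NT3 and 44545 to 48813 for NT4, and CDK4 knockdown at 45723 to 49482 overlapped NT4.

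Among 12 pocket protein and E2F genes, the RB pathway through which D-type cyclins act, 11 were lower and 0 higher in the senescent controls by limma, with a median of -0.67 and 68.6% of all genes called. RB1 fell by 0.74 in the senescent controls, and its log2 fold changes in the CCND1, CDK4, CDK6 and dual knockdowns were 0.08, 0.16, 0.07 and -0.02, none past the threshold. Of the activators, E2F1 fell to -0.64 in CCND1 knockdown, -0.96 in CDK6 knockdown and -1.30 in the dual knockdown, and was at 0.28 in CDK4 knockdown without passing the test. In the CCND1, CDK4, CDK6 and dual knockdowns 4, 2, 5 and 7 of the 12 were lower and 0, 0, 1 and 1 higher, beside 31.0%, 16.0%, 41.9% and 44.0% of all genes called.

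CDKN1A is induced by DNA damage, and 19 other genes of the damage response were read beside it. In the senescent controls 14 were higher and 1 lower, with a median of 0.74 against -0.03 over all tested genes, of which 68.6% were called. The stress cytokine GDF15 rose by 4.81, BTG2 by 2.48 and the ubiquitin ligase MDM2 by 1.68. CCND1 knockdown lowered 9 and raised 2, CDK4 knockdown lowered 0 and raised 4, CDK6 knockdown lowered 9 and raised 2, and the dual knockdown lowered 9 and raised 4, beside 31.0%, 16.0%, 41.9% and 44.0% of all genes called. The control siRNAs differed here too, with 7 of the 19 higher and 0 lower with NT4 than with NT3, where 27.8% of all genes were called. The medians were -0.25, 0.09, -0.23 and -0.14, against medians of -0.01, 0.00, -0.01 and 0.00 over all genes. MDM2 fell to a log2 fold change of -0.39 without CCND1, -0.59 without CDK6 and -0.71 without both kinases, and was at -0.06 without CDK4, not past the threshold. Beside these, the values of CDKN1A were -0.07 without CCND1, -0.49 without CDK4, -0.29 without CDK6 and -0.74 without both kinases.

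Of 10 genes for the turnover of CIP proteins, 7 were lower and 2 higher in the senescent controls, with a median of -0.60 and 68.6% of all genes called. SKP2, which marks p27 for degradation, fell by 1.28 there, and rose by 0.36 in CCND1 knockdown and by 0.31 in the dual knockdown. DTL, which directs the degradation of p21 in S phase, gave -2.28 in the senescent controls, -0.75 in CCND1 knockdown, -1.61 in CDK6 knockdown and -3.03 in the dual knockdown, all called. In the CCND1, CDK4, CDK6 and dual knockdowns 3, 0, 4 and 3 of these genes were lower and 2, 2, 2 and 3 higher, beside 31.0%, 16.0%, 41.9% and 44.0% of all genes called.

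Of 9 Polycomb and other regulators of the INK4 genes, 4 were lower and 3 higher in the senescent controls, with a median of -0.24 and 68.6% of all genes called. EZH2, the Polycomb methyltransferase that represses CDKN2A, fell by 2.41 there, and changed by -0.86 in CCND1 knockdown, -0.95 in CDK6 knockdown and -1.70 in the dual knockdown against the controls, all called. ID1, a repressor of CDKN2A transcription, rose by 1.94 in the senescent controls and fell by 0.85 in CCND1 knockdown and fell by 0.71 in the dual knockdown. In the CCND1, CDK6 and dual knockdowns 3, 2 and 3 of the 9 were lower and 0, 1 and 1 higher, beside 31.0%, 41.9% and 44.0% of all genes called. In CDK4 knockdown 0 of 9 passed the limma test, and among the 11 transcription factors known to act on inhibitor genes 2 were lower and 1 higher. Of those factors 6 were lower and 3 higher in the senescent controls, 1 and 1 in CCND1 knockdown, 4 and 1 in CDK6 knockdown and 3 and 3 in the dual knockdown. Of all genes, 68.6% were called in the senescent controls, 31.0% in CCND1, 16.0% in CDK4, 41.9% in CDK6 and 44.0% in the dual knockdown. FOXO1 rose by 2.72 in the senescent controls. SMAD3, which carries TGF-beta signals to CDKN2B, rose by 0.25, 0.20, 0.26 and 0.40 in the CCND1, CDK4, CDK6 and dual knockdowns.

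As a measure of dividing cells, 12 mitotic genes were read beside CDKN2C and CDKN3, with CCNA2 counted both here and among the cyclins. All 12 were lower in the senescent controls (median -3.05) and in the dual knockdown (median -2.50). Of all genes, 36.1% and 21.5% were called as lower in these comparisons. In CCND1 and CDK6 knockdown 11 were lower and 0 higher, and in CDK4 knockdown 6 were higher and 0 lower, against 31.0%, 41.9% and 16.0% of all genes called. MKI67, the marker of cycling cells, averaged 8163 in proliferating cells, 665 in the controls, 424 in CCND1 knockdown, 988 in CDK4 knockdown, 415 in CDK6 knockdown and 98.5 in the dual knockdown. The dual knockdown lay below the sum of the single effects for all 12, with a median of -1.91, beside 3.71% of all genes called as lower. How far the number of dividing cells plays a part in the values of CDKN2C and CDKN3 was not tested.

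For each inhibitor whose group means spanned at least 1 on the log2 scale, the 3 most alike genes were found among the 9104 tested genes with a mean of 100 or more, by the root mean square difference of the 7 centred group means. CDKN3 was closest to CEP55 (0.12), KIF20A (0.14) and KIF14 (0.14), and CDKN2C to HMGB2 (0.11), KIF11 (0.20) and PLK4 (0.20). CDKN1B was closest to TUBGCP3 (0.08), TAGLN2 (0.09) and XRCC3 (0.10). The nearest genes to CDKN1A were CHST2 (0.20), APLP1 (0.20) and SPATA18 (0.22). CDKN2A had PPP1R15B (0.12), FJX1 (0.15) and UAP1L1 (0.15), and CDKN2B had ENTPD7 (0.19), UPP1 (0.23) and NOCT (0.24). The neighbours CDKN2A and CDKN2B were not among each other's 3. These are descriptions over 7 group means, which share libraries and scaling.

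**Figure D4:**
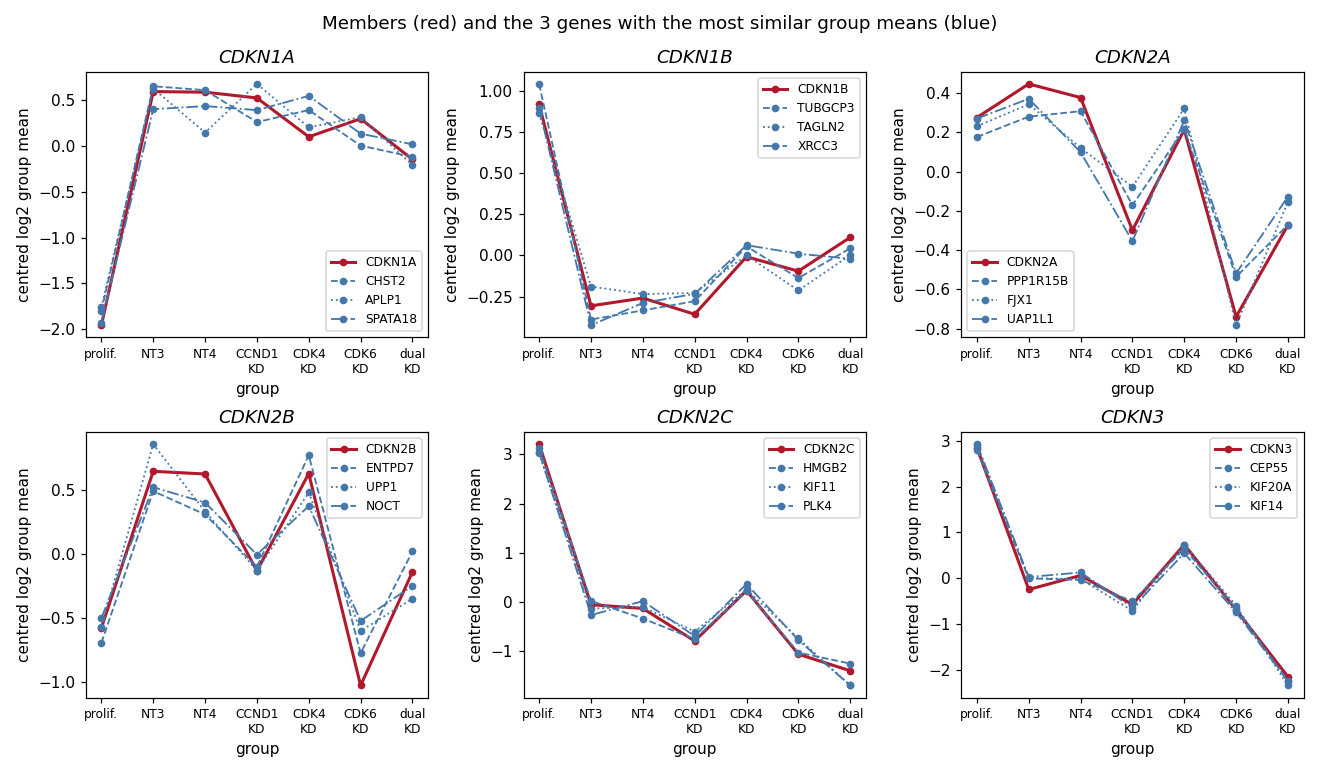
Centred log2 group means (vertical axis, a scale of its own in each panel) of 6 inhibitors, in red, and of the 3 most alike genes of each, in blue, over the 7 groups. The largest root mean square difference from these genes is 0.10 for CDKN1B, 0.14 for CDKN3 and 0.15 for CDKN2A. It is 0.20 for CDKN2C, 0.22 for CDKN1A and 0.24 for CDKN2B.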

How the data were processed

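Normalised read counts of 16383 genes in 21 libraries were used as deposited, an expression signal per gene and library. Dividing each library by its smallest value above 0 returned whole reads, within 0.02 of a read or 1e-06 of the value, for 100% of values, so the authors had scaled read counts by 1 factor per library. Per the submitters' processing notes, tools included Trimmomatic 0.38.1, HISAT2 2.2.1, featureCounts 2.0.3 and DESeq2 2.11.40.8, with builds hg38 and GRCh38. Their settings, strandedness included, are not given in the sources used here. Table columns carry the group and no replicate number, so library numbers follow column order and are names only.

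The 11579 genes at 10 or higher in 3 or more libraries were fitted with limma 3.58.1 in R 4.3.3 on the log2 of the value plus 1, using a mean for each of the 7 groups and trended empirical Bayes moderation. Tests were two-sided, with Benjamini-Hochberg adjustment over all tested genes within each of 12 comparisons and a threshold of 0.05. The script was tested on simulated data. Recovered reads were also tested with edgeR 4.0.16 and DESeq2 1.42.0. Further alternatives used a pseudocount of 0.1 or 10, no filter or a minimum mean of 100, median centring, quantile normalisation, 1 control siRNA alone, the compared groups alone, each library left out, and a replicate block. Loci come from GENCODE release 44 and promoter windows from RefSeq. The 8 inhibitors, the gene lists and the tests were chosen with earlier results of these data known. Named genes were the 8 inhibitors, at most 6 of each list with the largest changes past the threshold together with CCND1, CDK4, CDK6, MDM2, RB1, SKP2 and MKI67, and the 3 genes nearest to each inhibitor. One further gene is not reported here.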

Additional observations from a re-analysis of the deposited data

Results flagged for a closer look

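Against the summed single-knockdown effects, the dual knockdown departed by 0.67 on the log2 scale for CDKN2A, by 0.89 for CDKN2B and by -2.28 for CDKN3, each past the threshold of the limma test of that difference.

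In the 6 control libraries, the CDKN2B value of 512.9 in NT3 library 2 stood apart from the rest, with a gap of 0.824 of the group's whole range. The CDKN1C value of 12.24 in NT4 library 1 had a gap of 0.682. Both gaps exceed the critical value of Dixon's test for 6 samples, which chance exceeds in about 1 of 20 groups.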

How the results depend on the processing

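Of 1582 values of single inhibitors under the alternatives, 1552 stayed on their side of the threshold, 14 lost the call and 16 gained it. The sign changed in 27, of which 0 were called as reported. The count of inhibitors called for CDK4 knockdown, 2 as reported, was 4 by DESeq2 on recovered reads and 1 with NT4 alone as the control. All other counts of inhibitors stayed within 1.5 times the reported ones. Leaving out each library in turn gave 2 to 3 for CDK4 knockdown, 4 to 6 for CDK6 knockdown, 3 to 4 for the dual against the CDK6 knockdown and for the CCND1 against the dual knockdown, and no change in the other 8 comparisons. Counts over all genes moved more. Fitting the compared groups alone called 955 genes in place of 3216 between NT4 and NT3, 2269 in place of 3594 for CCND1 knockdown, 787 in place of 1854 for CDK4 knockdown, 394 in place of 735 for the departure from the sum, and 2434 in place of 1504 for dual against CDK6 knockdown. With NT3 alone as the control the count was 2962 for CDK4 knockdown and 1899 for the departure, and with NT4 alone it was 2235 for CCND1 knockdown and 455 for the departure. Leaving out 1 library gave 1176 or 1062 for CDK4 knockdown without its library 1 or 2, and 937 for dual against CDK6 knockdown without CDK6 knockdown library 3. The other all-gene counts, those of edgeR and DESeq2 included, stayed within 1.5 times, apart from the departure without single libraries as given in the report.

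The table columns carry no replicate numbers, so the numbers in the labels could not pair the libraries. As an alternative chosen after seeing the data, runs of consecutive codes in the column headers served as a replicate block for the 18 irradiated libraries. Each run holds a library of every irradiated group, in the same order of groups. The proliferating libraries have a run of codes of their own, A113 to A115. What the codes stand for is not given in the sources used here. Anything that goes with them cannot be told apart from irradiation and transfection in comparisons with proliferating cells. Deviations of libraries of the same run correlated weakly (median r 0.04 over 45 pairs, from -0.11 to 0.10), against a median r of -0.02 over 90 pairs from different runs. Of the 18 libraries, 13 were closest to their own run out of the 3 runs, and no test was made of that count. With that replicate block, the count was 3 for CCND1, 3 for CDK4 (CDKN1B gained, adjusted p = 0.0281), 5 for CDK6 and 6 for dual knockdown, 3 for the departure from the sum, and 3 for CCND1 against dual knockdown (CDKN2C lost, adjusted p = 0.0636).

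Depth limits CDKN1C, at 0 to 11 reads per library, and CDKN3 in the dual knockdown, at 49 reads in all.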
